A study of Mus musculus with 18 samples.

Results

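Igf2bp1, Igf2bp2, Igf2bp3, Lin28b, Hmga1, Hmga2, Mex3a and Mex3b are 8 genes of fetal and stem cell growth programmes, and their RNA was followed here in the postnatal mouse spinal cord. The loci were found by gene symbol: a row of the deposited expression table belonged to the set when its symbol, or any symbol of a joined name, was 1 of the 8. All 8 symbols were found, in 10 of the 58570 gene loci of the table, because Igf2bp3 had 3 loci. The cords came from mice of the SMNΔ7 strain, a model of spinal muscular atrophy (SMA). Homozygotes, which lack a working Smn1 gene, form the SMA groups, and heterozygotes, which keep 1 copy, form the control groups. Whole cords were taken at postnatal days 2, 6 and 10 (P2, P6 and P10), which gives 6 groups of 3 libraries and 18 libraries in all. Mice of this strain are known to carry human SMN transgenes as well, controls included; the labels do not list them. Each group has 1 deposited value per locus, in which its libraries are already combined, so no value per library and no spread between libraries is given below. The labels do not say that the libraries of a group came from separate animals.

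Of the 8 genes, Lin28b, Hmga2 and the Igf2bp family meet in a well studied circuit. LIN28B binds the precursors of let-7 microRNAs and stops their maturation, and mature let-7 in turn represses messages that carry matches to its seed, among them those of Lin28b itself, Hmga2 and the Igf2bp family. The IGF2BP proteins hold target messages such as Igf2 and beta-actin RNA in stable granules, the HMGA proteins bend AT-rich DNA and open chromatin in dividing progenitors, and the MEX3 proteins bind messages through KH domains and are best known from stem and progenitor cells. In the developing nervous system most of these genes are known as fetal genes whose RNA declines as progenitors give way to neurons and glia.

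The let-7 seed and its matches are shown first, because they are the sequence feature that part of the set is best known for. In the RefSeq microRNA table for GRCm38.p6, 11 of 1679 mature mouse microRNA names carried the letters GAGGUAG at bases 2 to 8. Of these, 4 from separate precursors are given below, 5′ to 3′, with the seed in capitals.
mmu-let-7a-5p, chr13:48538239-48538260, minus strand: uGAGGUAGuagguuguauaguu
mmu-let-7b-5p, chr15:85707325-85707346, plus strand: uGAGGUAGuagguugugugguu
mmu-let-7e-5p, chr17:17830366-17830387, plus strand: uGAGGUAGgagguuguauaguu
mmu-let-7i-5p, chr10:122985698-122985719, minus strand: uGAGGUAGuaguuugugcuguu

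The complement of this seed, CTACCTC, was searched on the sense strand of the longest annotated 3′ UTR of each gene in GENCODE M21 (GRCm38). Igf2bp1, Lin28b and Hmga2 held 4 matches each, Igf2bp2, Igf2bp3 and Hmga1 held 1 each, and Mex3a and Mex3b held 0. In Igf2bp1, 3 of the 4 matches were followed by an A, which makes the 8-base form, whereas Lin28b and Hmga2 had 1 such match each. Windows of 22 bases that end with the match are printed below in the sense of the message, with the match in capitals, and positions are counted from the base after the stop codon. The first match of each of the 6 genes is given, with the second of Lin28b and of Hmga2 and the fourth of Igf2bp1 to show the 7-base form.
Igf2bp1, UTR position 1715, chr11:95961778-95961799, minus strand: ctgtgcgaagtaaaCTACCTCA
Igf2bp1, UTR position 5353, chr11:95958141-95958162, minus strand: acttttggttttaatCTACCTC
Igf2bp2, UTR position 1313, chr16:22059473-22059494, minus strand: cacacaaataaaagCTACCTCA
Igf2bp3, UTR position 548, chr6:49086787-49086808, minus strand: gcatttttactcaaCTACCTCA
Lin28b, UTR position 36, chr10:45381022-45381043, minus strand: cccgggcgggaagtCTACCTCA
Lin28b, UTR position 2410, chr10:45378649-45378670, minus strand: tatacttgttagtaaCTACCTC
Hmga1, UTR position 801, chr17:27563277-27563298, plus strand: tcctctgttcacaaaCTACCTC
Hmga2, UTR position 58, chr10:120364224-120364245, minus strand: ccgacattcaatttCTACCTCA
Hmga2, UTR position 1295, chr10:120362988-120363009, minus strand: ccccactcctcaataCTACCTC

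Matches of this kind were uncommon. Of 21020 genes with an annotated 3′ UTR, 9.03% held at least 1 match on the sense strand, 7.67% held the reversed complement of the letters as a comparison, and 32 genes held 3 or more. UTR length differed among the members, from 1183 bases in Hmga1 to 6337 in Igf2bp1. Among genes whose UTR was of like length (from 0.8 times the member's length to the inverse of that factor), 0.0821% held at least as many matches as Hmga2, 0.166% as many as Igf2bp1 and 0.221% as many as Lin28b. For Mex3a, with a UTR of 4215 bases, 23.7% of the genes of like length held a match. A match is a description of the letters only, and let-7 binding was not measured.

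Before the members' values, 2 features of the groups bear on every comparison of genotypes. Estimated fragments per group were between 6881671 and 7386338, and 18031 to 19336 loci had FPKM (the fragments of a locus per kilobase of its length, scaled to depth) of 1 or more. Smn1, the gene that SMA mice lack, had FPKM 2.70, 4.46 and 3.54 in control cords, in order of age. In the groups labelled SMA it had 0.0210 at P2 and 2.82 at P10 and was listed at 0 at P6, so the group labelled SMA at P10 was near the control level. The summed FPKM of 8 found of 9 mature oligodendrocyte markers was 248, 1738 and 7449 in control cords with age, and 3374, 1962 and 4153 in the SMA groups. The group labelled SMA at P2 was therefore above control P2, and above SMA P6, in these markers. The part of either feature in the values below was not tested. The cord label held: the 3 caudal Hox genes found of 6 summed to FPKM 54.8 to 64.7, 7 of 7 motor neuron markers reached FPKM 1, and 0 of the 4 forebrain markers found did, 1 of them listed at 0.

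Mex3a, which encodes a KH-domain RNA-binding protein, was the only member called in the main z tests. With age its control level went from FPKM 7.18 to 3.82 and then to 1.74. The authors' model interval ran from 4.26 to 10.1 at P2 and from 0.848 to 2.63 at P10, so the youngest and the oldest control group did not overlap, as in 1.36% of all loci tested. Mex3a fell between P2 and P10 in control, to 24.2% of its P2 level, a log2 ratio of -2.05 ± 0.48 (SE from the interval, two-sided z test, adjusted p = 0.00507 over 19956 loci). It was 1 of 9 member loci called in that comparison, against 0.631% of all loci tested. Loci called lower made up 0.0852% of all tested, or 17 loci. By the size of the log2 ratio Mex3a ranked at place 22 among 11335 protein-coding loci, counted from the greatest fall. These loci had FPKM of 1 or more in control P2 and above 0 in every group.

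The decline of Mex3a was spread over both intervals of age. Its control level at P6 was 53.2% of that at P2 (log2 ratio -0.91 ± 0.44), and the level at P10 was 45.5% of that at P6 (-1.14 ± 0.50). Neither step passed the z test on its own, with an adjusted p of 1.00 each. In these steps 0 of 9 member loci were called, and the shares over all loci were 0.112% and 0.0751%. With the SE divided by the square root of 3, as if each interval described 1 library, the step from P6 to P10 was called as well (adjusted p = 0.0106). That setting called 207 of 19974 loci in this step.

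In the SMA groups Mex3a had FPKM 5.55, 3.07 and 3.44 in order of age. These levels lie closer together than those of the controls, and the value at P10 is not below the one at P6. The log2 ratio of P10 to P2 was -0.69 ± 0.50 (adjusted p = 1.00), with 0 of 9 member loci called and 0.0602% of all loci. SMA P6 against P2 gave -0.85 ± 0.48 for Mex3a, with 0 of 9 called against 0.0312%, and SMA P10 against P6 gave 0.16 ± 0.49, with 0 of 9 called against 0.0398%. The change from P2 to P10 in SMA minus that in control was 1.36 ± 0.69 on the log2 scale (95% interval from -0.00336 to 2.72, adjusted p = 1.00), and 0 of 9 members passed that test, against 0.0574% of all loci. For the change from P2 to P6 it was 0.06 ± 0.65, with 0 of 9 called against 0.0344%. The difference of the 2 courses is thus not shown for Mex3a.

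Mex3b, the closest relative of Mex3a in the set, followed a similar order at a smaller size. Control levels were FPKM 9.15, 5.77 and 4.41 at P2, P6 and P10, with P10 at 48.1% of P2. The log2 ratio was -1.05 ± 0.48 (95% interval from -1.99 to -0.12, adjusted p = 1.00) and did not pass over all loci. With the SE divided by the square root of 3 it did (adjusted p = 0.00535), as did 920 of 19956 loci in the z test. The SMA levels were 7.60, 5.77 and 5.61, and the log2 ratio of P10 to P2 was -0.44 ± 0.50. At P6 the 2 genotypes had the same level to 3 digits.

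**Figure D1:**
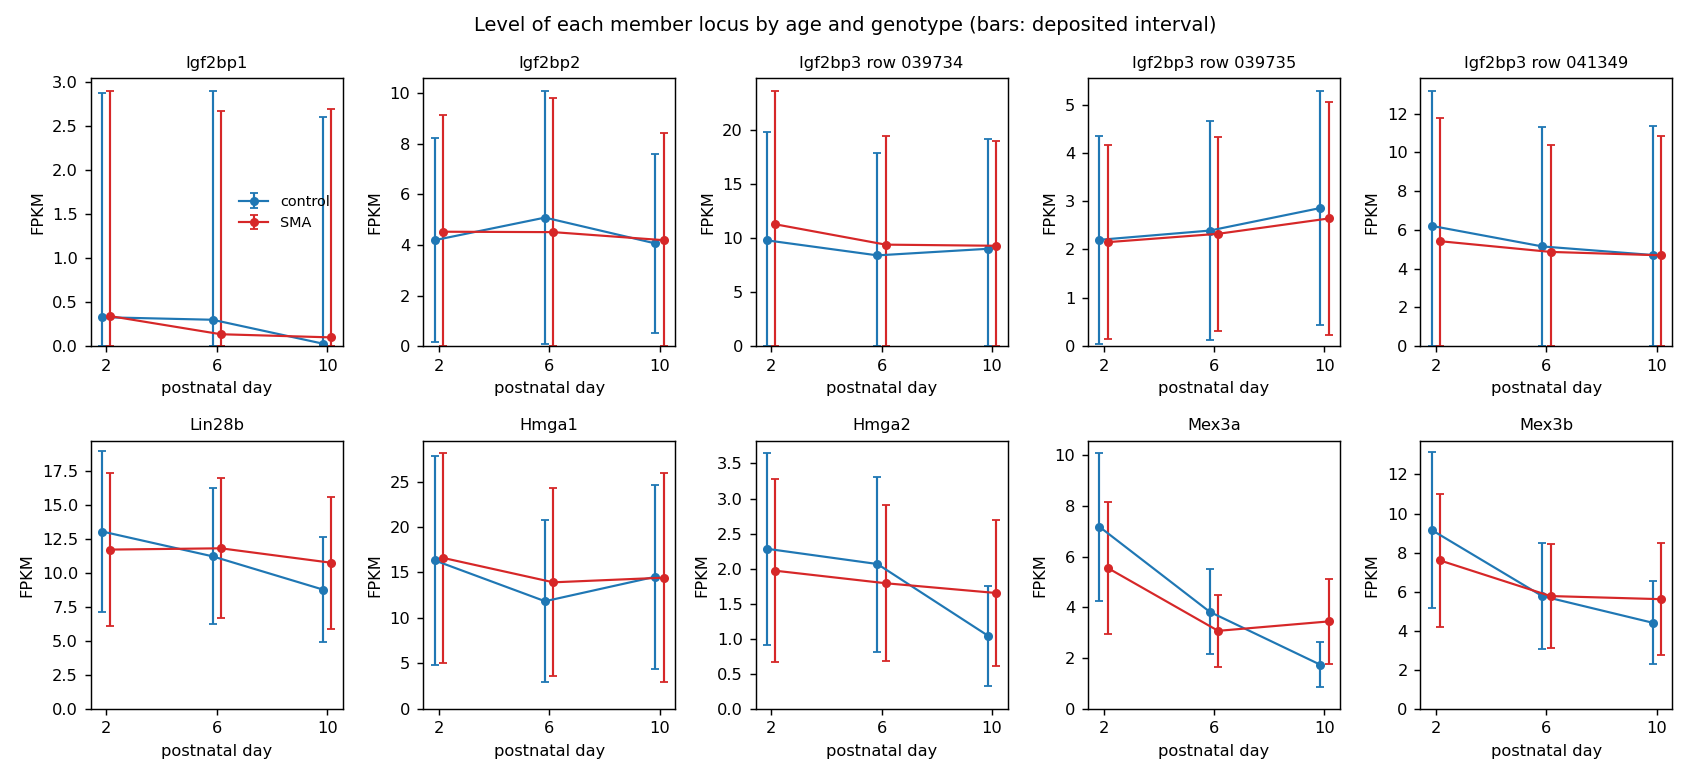
FPKM of the 10 member loci (y axis, linear from 0) by postnatal day (x axis) in control (blue) and SMA (red) cords; points are the authors' group values, bars their model interval, and points are set slightly apart sideways. The 3 Igf2bp3 panels carry the number of the locus in the deposited table. Mex3a in control is the only series in which the bars at P2 and P10 do not overlap.

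Lin28b, the let-7 blocker, was among the more abundant members. It had FPKM 13.1, 11.2 and 8.78 in control, in order of age, and 11.7, 11.8 and 10.8 in SMA. All 6 intervals overlapped, since the lowest upper bound, 12.7 in control P10, lies above the highest lower bound, 7.11 in control P2. Control P10 was at 67.2% of P2 (log2 ratio -0.57 ± 0.47, adjusted p = 1.00), and SMA P10 was at 91.7% of SMA P2 (-0.12 ± 0.48). Its relative Lin28a, which blocks let-7 in embryonic stem cells, was at or under FPKM 0.142 in every group. The Lin28b locus held 9 transcription start sites in the table where the annotation has 3 transcripts, and 2 further loci without a symbol lay within its span, at FPKM 0.895 to 1.77. Whether the locus also holds fragments from outside the annotated message was not tested.

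Hmga2, the chromatin protein that is the classical let-7 target, was low throughout. Its control level was FPKM 2.28, 2.07 and 1.04 at P2, P6 and P10, and the SMA level was 1.97, 1.79 and 1.65. Control P10 had the lowest value of the 6 groups, with 29.2 estimated fragments, and control P2 the highest, with 62.9. The log2 ratio between them was -1.13 ± 0.67 (adjusted p = 1.00), and it did not pass. Its place was 247 among the same 11335 protein-coding loci, counted from the greatest fall. Antisense genes 1700006J14Rik and 9230105E05Rik overlap Hmga2, at FPKM of at most 0.321 and 0.420; whether counting used strand is not given in the sources used here.

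Hmga1, the other HMGA gene, had the highest FPKM of the member loci in every group and showed no ordered course with age. Control levels were FPKM 16.3, 11.8 and 14.5, and SMA levels were 16.6, 13.9 and 14.4. The log2 ratio of control P10 to P2 was -0.17 ± 0.73, and all 6 intervals overlapped. AI413582, a gene on the opposite strand at FPKM 11.4 to 12.9, overlaps Hmga1 by 102 bases at its 3′ end, so the Hmga1 level is uncertain.

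None of the IGF2BP loci was called, and their errors were wide. Igf2bp2, the family member that persists in adult tissue, was at FPKM 4.19, 5.08 and 4.06 in control and at 4.53, 4.51 and 4.19 in SMA. Its log2 ratio of control P10 to P2 was -0.04 ± 0.96, and that SE is about as wide as a 2-fold change. Igf2bp1, the zipcode-binding protein of beta-actin messages, was near the limit of detection: FPKM 0.328, 0.299 and 0.0272 in control and 0.340, 0.135 and 0.0989 in SMA. Its locus, joined with Mir3063, held 20.5 and 16.3 estimated fragments at P2 and 1.71 and 4.99 at P10 in control and SMA, and every interval began at 0 and ended between 2.60 and 2.90. It was the 1 member locus that reached FPKM 1 in no group, so it was not tested. The estimated fragments gave a log2 ratio of -3.58 ± 3.17 for control P10 to P2, a difference that was not detectable at this depth.

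Igf2bp3, a fetal member of the family, had 3 loci that differ in their neighbours. The locus XLOC_041349 was at FPKM 6.21, 5.15 and 4.70 in control and 5.42, 4.86 and 4.69 in SMA; 77 of its 83 annotated neighbours in table order lie on the minus strand, where Igf2bp3 lies. The locus XLOC_039735 was lowest at P2 (2.15 in SMA) and highest at P10, at 2.86 in control and 2.64 in SMA. The locus XLOC_039734, joined with Malsu1, a mitochondrial ribosome factor, was at 9.78, 8.39 and 8.996 in control and 11.3, 9.38 and 9.27 in SMA. These other 2 loci lie among neighbours of which 80 of 81 and 80 of 82 are on the plus strand. Malsu1 is a plus-strand gene whose annotation overlaps Igf2bp3 by 1529 bases, so these 2 rows cannot be read as Igf2bp3 alone. The log2 ratios of control P10 to P2 were -0.40 ± 1.33, 0.38 ± 0.95 and -0.12 ± 1.13 in the order given, with opposite signs inside 1 gene symbol and none called.

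Across the 9 member loci tested, 8 had a lower value in control at P10 than at P2. Their median log2 ratio was -0.40, beside 0.02 over all loci tested, of which 51.8% were above 0. In SMA, 8 of 9 were lower at P10 too, with a median of -0.21 beside 0.05 and 56.7% of all loci above 0. The 9 include 3 rows of Igf2bp3, and the 1 locus that was higher, in both genotypes, was XLOC_039735. The levels spread widely among members: in control P2, Hmga1 stood at percentile 79.9 of the loci at FPKM 1 or more, Lin28b at 74.9, Mex3a at 59.0 and Hmga2 at 27.8. In control P10 Mex3a stood at percentile 19.7 and Hmga2 at percentile 1.73. Of the 7 immature neuron markers found of 8, 7 had a lower value at P10 than at P2 in control (median log2 ratio -1.09, 1 called) and 6 in SMA (median -0.47, 0 called); their summed FPKM was 565 and 300 in control and 465 and 385 in SMA. Of 8 neural progenitor markers, 3 were lower at P10 in control (median 0.07) and 5 in SMA (median -0.12), with 0 called. Their summed FPKM, most of it Fabp7, was 485 and 275 in control and 359 and 365 in SMA, so sum and median differ in direction in both genotypes. Their part in the members' values was not tested, and in whole cord RNA fewer cells of a type and less RNA per cell cannot be told apart.

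SMA and control were then compared at each age. At P2, 0 of 9 member loci were called (0.126% of all loci), at P6 0 of 9 (0.0458%) and at P10 0 of 9 (0.0397%). By an unadjusted p under 0.05 the counts were also 0 of 9 at each age, beside 0.743%, 0.168% and 0.213% of all loci. Since so few loci pass even without adjustment, this count says little about the members. Mex3a was at 77.4% of control at P2 (log2 ratio -0.37 ± 0.46), 80.4% at P6 (-0.31 ± 0.47) and 198% at P10 (0.99 ± 0.52, adjusted p = 1.00). The 95% interval at P10 ran from -0.04 to 2.01 and includes 0. Hmga2 had the same order of signs, at 86.3%, 86.7% and 158% of control (0.66 ± 0.69 at P10).

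At P10 the other tested members lay nearer to control than Mex3a and Hmga2. Mex3b was at 83.0%, 100% and 127% of control with age, Lin28b at 89.8%, 105.3% and 122%. Hmga1 stayed between 99.3% and 118%, and Igf2bp2 between 88.7% and 108%. The Igf2bp3 loci ranged from 87.3% to 115%. At P10, where Mex3a, Hmga2, Mex3b and Lin28b had their highest ratios, the group labelled SMA is the one with Smn1 at 2.82, and at P2 the SMA group is the one with the oligodendrocyte markers at 3374.

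**Figure D2:**
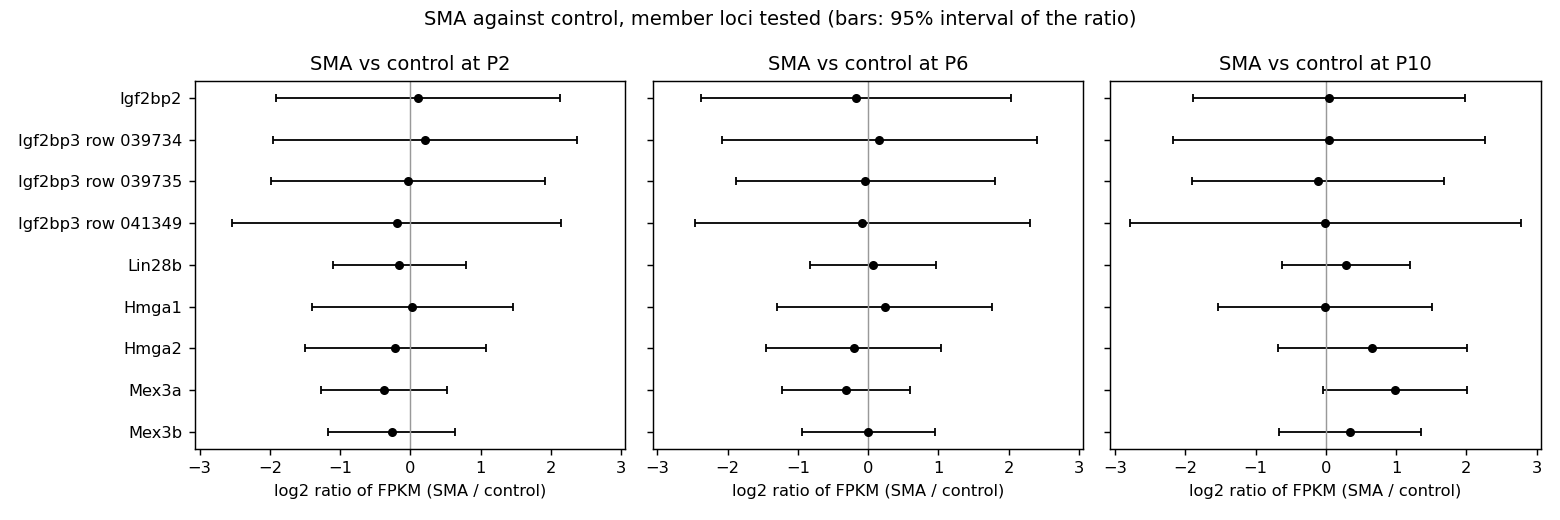
Log2 ratio of FPKM, SMA over control (x axis), for the 9 member loci tested (rows) at P2, P6 and P10 (panels); bars are 95% intervals from the authors' bounds and the grey line marks no difference. Every bar crosses 0, and the point farthest from it is Mex3a at P10, at 0.99.

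A fit over the 3 ages with limma on log2(FPKM + 1), in which the 3 ages stand in for replicates, called 0 of 9 members, with 0.00455% of 21960 loci called (451 loci at an unadjusted p under 0.05, edgeR 0 called). Mex3a differed by 0.05 ± 0.22 on that scale, Lin28b by 0.06 ± 0.11 and Hmga2 by 0.03 ± 0.15. Without the P10 groups the sign of Mex3a turned, to -0.28 (limma, adjusted p = 0.707), and so did those of Hmga2 (-0.14), Mex3b (-0.12) and Lin28b (-0.04). The across-age values of these 4 genes therefore rest on the group at P10.

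Among the tested members, Mex3a, Hmga2, Mex3b and Lin28b had the lowest ratios of control P10 to P2, and all 4 had flatter SMA courses. Each SMA group was therefore placed on the control course, where control P2 is 0% and control P10 is 100% of the log2 distance. SMA P2 lay at 18.1% for Mex3a, 25.5% for Mex3b, 18.8% for Hmga2 and 27.1% for Lin28b. SMA P10 lay at 51.8%, 66.9%, 41.3% and 48.9%. Genes that fell in control did the same as a group. Over 353 protein-coding loci with a log2 ratio of -1 or lower in control, the median position was 26.8% in SMA P2, 33.4% in SMA P6 and 53.0% in SMA P10, with quartiles of 40.6% and 67.4% at P10. Mex3a, Mex3b and Hmga2 are themselves among these 353. All 4 members lay within those quartiles at P10. At P6 Mex3a (59.8%) and Mex3b (63.0%) lay above the upper quartile of 44.9%. The positions share the control groups, members and loci were both chosen by these control values, and they have no test.

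**Figure D3:**
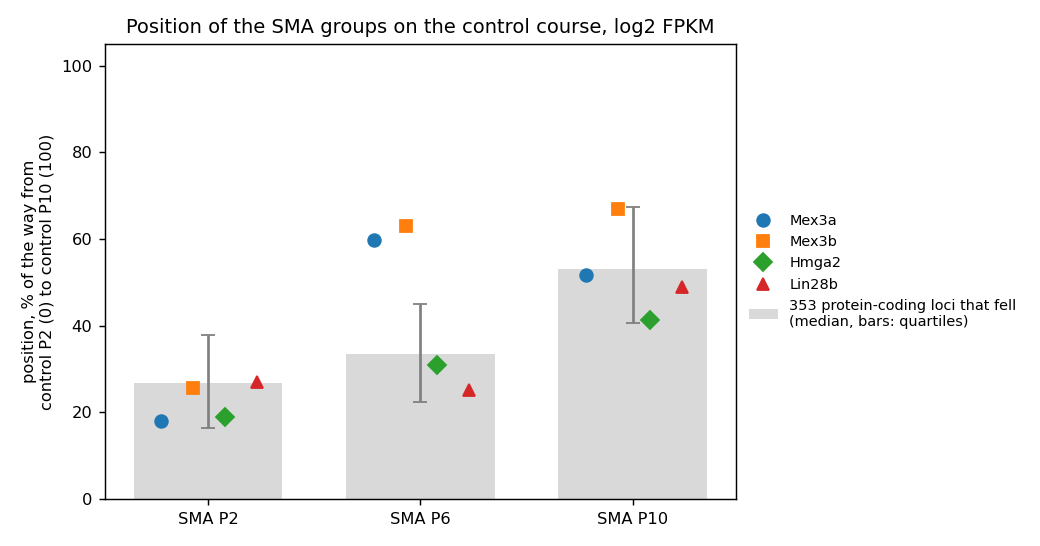
Position of the SMA groups (x axis) between control P2 (0%) and control P10 (100%) on log2 FPKM (y axis). Grey bars are the median over 353 protein-coding loci that were lower by 1 log2 unit or more in control, with quartiles as lines, and coloured points are 4 members. The 353 loci include Mex3a, Mex3b and Hmga2. The members and the median of the 353 lie near the middle at P10, with Mex3a at 51.8% beside a median of 53.0%.

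The let-7 matches printed above were set beside the control course of the 7 members with a tested locus. Mex3a and Mex3b, with 0 matches, had control P10 to P2 ratios of -2.05 and -1.05 on the log2 scale. Hmga2 and Lin28b, with 4 each, had -1.13 and -0.57. Igf2bp2, Igf2bp3 (XLOC_041349) and Hmga1, with 1 each, lay between -0.40 and -0.04. Igf2bp1, also with 4 matches, was not tested for its low level, and its log2 ratio from estimated fragments was -3.58 ± 3.17. Over all other loci tested with an annotated 3′ UTR the median log2 ratio was 0.02 for the 10561 with 0 matches, 0.04 for 1073 with 1, -0.01 for 130 with 2 and -0.01 for the 18 with 3 or more. In control P6 against P2, SMA P10 against P2 and SMA against control at P6 the medians followed the number of matches in small steps. From 0 to 3 or more matches they went from -0.04 to -0.02, from -0.02 to 0.04 and from 0.11 to 0.07 in that order. These steps are small beside the spread: the quartiles at 3 or more matches were -0.26 and 0.23, -0.14 and 0.23, and -0.14 and 0.18. In SMA against control they did not follow that number at P2 (0.03, 0.02, -0.003 and 0.03) or at P10 (-0.005, -0.01, 0.02 and 0.09). UTR length rose with the matches, from a median of 1164 bases at 0 to 5008 at 3 or more in control P10 against P2. These medians have no test.

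**Figure D4:**
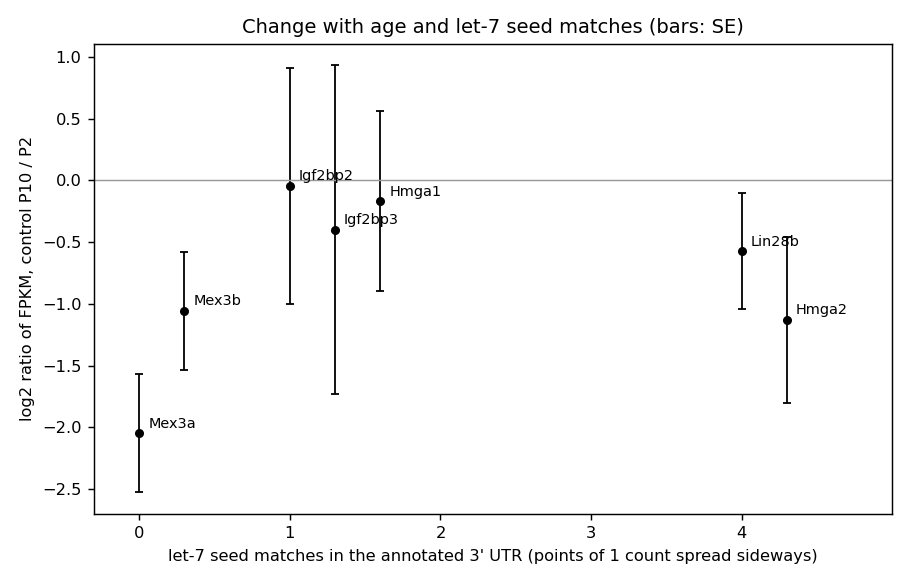
Log2 ratio of FPKM, control P10 over P2, for 7 members (y axis). The x axis is the number of let-7 seed matches in the annotated 3′ UTR. Bars are SE, and points with the same count are spread sideways. Igf2bp1 is left out, and Igf2bp3 is the locus XLOC_041349, whose neighbours lie mostly on the minus strand. The lowest point, Mex3a at -2.05, has 0 matches.

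The let-7 genes themselves were visible only as long host transcripts, since mature microRNAs are not measured in these libraries. Of 9 loci that carry a let-7 or Mir98 name, 5 were listed at 0 in every group. The host of Mirlet7a-1 and Mirlet7f-1 was at FPKM 7.63, 7.89 and 8.40 in control and 6.79, 8.34 and 7.56 in SMA. The host of Mirlet7b and Mirlet7c-2 was at 6.05, 7.54 and 8.57 in control and 6.49, 6.38 and 7.75 in SMA. The locus of Mirlet7e, joined with Spaca6, was at 15.8, 17.5 and 19.2 in control, and that of Mirlet7i at 4.23, 4.34 and 3.19. The first 3 had their highest control value at P10 and the fourth its lowest.

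Related genes were followed in 7 lists of 89 genes, 77 of which had a locus of their own. Of 71 loci tested in each comparison, 0 were called in any of the 11 z tests. In control P10 against P2, 5 had an unadjusted p under 0.05, namely Gap43, Mapt, Hmgb3, Mex3d and Qk, while 3.51% of all loci did. Genes of let-7 maturation and action had a median log2 ratio of -0.23 there, with 7 of 11 below 0; Hnrnpa1, which binds let-7 precursors, was at FPKM 74.7 and 55.1, and Zcchc11, the enzyme that tails them, at 20.9 and 17.8. Other let-7 targets had a median of 0.02 with 9 of 18 below 0, and their most abundant members, the growth signalling GTPases Hras and Nras, were at 29.6 and 25.8 and at 16.2 and 22.9.

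Partners and client messages of the IGF2BP proteins had a median of -0.02, with 6 of 11 below 0. Actb, the classical zipcode message, was at FPKM 893 and 738 in control P2 and P10, and Gap43, a growth cone protein, at 244 and 83.3 (log2 ratio -1.55 ± 0.48, adjusted p = 0.146). The other HMG proteins had a median of -0.18 with 6 of 9 below 0, among them Hmgn2 at 56.1 and 49.5 and Hmgb3 at 44.5 and 21.2. Other KH-domain and stem cell RNA-binding proteins had a median of -0.17 with 8 of 11 below 0. Qk, which promotes myelin messages, was at 98.3 and 265, Pum2 at 36.0 and 31.2, and Mex3d, a further MEX3 gene named after its values were seen, at 8.39 and 3.63 (-1.21 ± 0.60, adjusted p = 1.00).

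The list of the Ink4/Arf axis, which Hmga2 is known to restrain in neural stem cells, had a median of -0.04 with 3 of 5 tested loci below 0. The loci tested were Cdkn2c, Cdkn2d, Junb, Bmi1 and Ezh2. Cdkn2a and Cdkn2b themselves were too low to test, at or under FPKM 0.0646 and 0.694 in every group, so their change is not known. Cdkn2d was at FPKM 28.0 and 19.7 and Bmi1 at 11.6 and 10.9. Genes of the juvenile growth decline had a median of -0.16 with 7 of 8 below 0; Peg3 was at 78.1 and 74.5 and Mest at 63.2 and 57.7. Between SMA and control the medians of the 7 lists lay from -0.07 to 0.18 over the 3 ages.

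Genes whose profile was most like each member were taken by the root mean square distance of centred log2(FPKM + 1) over the 6 groups, among 17113 loci, as a description. Zfp57 (24.8, 14.03 and 7.74 in control; 18.9, 12.9 and 13.8 in SMA) and Sox11 (18.6, 10.2 and 5.01; 14.5, 8.37 and 8.15) were nearest to Mex3a, at distances of 0.06 and 0.07. Sox11, a transcription factor of newborn neurons, is also 1 of the immature neuron markers above. Zbtb37 was nearest to Hmga2 at 0.03, with FPKM 7.94, 7.75 and 4.73 in control. Its annotated 3′ UTR also held 4 let-7 matches, but in 16999 bases, where that of Hmga2 has 3014. Slc35f1 was nearest to Lin28b at 0.01 (23.8, 20.5 and 16.2 in control), Gm13246 to Mex3b at 0.05, Smarcd1 to Hmga1 and Bdh2 to Igf2bp2 at 0.03 each. Gm13246 had FPKM 1.28, 0.615 and 0.254 in control, beside 9.15, 5.77 and 4.41 for Mex3b. The 1 added to FPKM shrinks changes at low levels, so near profiles can differ in fold change. Sh3rf1 was nearest to the mean profile of the 9 members, at 0.02, with FPKM 6.63, 5.63 and 4.72 in control and 6.44, 5.60 and 5.36 in SMA.

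On GRCm38 the members lie apart. Mex3a (ENSMUSG00000074480.4) is on chromosome 3 from 88532395 to 88541396 and Mex3b (ENSMUSG00000057706.7) on chromosome 7 from 82867333 to 82871515, both on the plus strand. Lin28b (ENSMUSG00000063804.8, 45376620 to 45486395) and Hmga2 (ENSMUSG00000056758.14, 120361275 to 120476469) are on the minus strand of chromosome 10, and Hmga1 (ENSMUSG00000046711.16) is on the plus strand of chromosome 17 from 27556497 to 27563674. Igf2bp1 (ENSMUSG00000013415.9) is on chromosome 11 from 95957163 to 96005940, Igf2bp2 (ENSMUSG00000033581.17) on chromosome 16 from 22059009 to 22163299 and Igf2bp3 (ENSMUSG00000029814.10) on chromosome 6 from 49085223 to 49214957, all on the minus strand. All 8 are protein coding.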

How the data were processed

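Total RNA of 18 libraries was sequenced after rRNA removal with a stranded kit, per the labels' protocols. The build GRCm38 and the tools Cuffdiff, Cufflinks 2.2.1, TopHat2 2.1.1, Bowtie2 2.2.4, FastQC and Picard are named in the submitters' processing notes; the annotation, strand setting and normalization are not given in the sources used here. The authors deposited FPKM per locus and group with a model interval, per the file headers. A companion table deposited by the authors holds estimated counts with their model variance. The confidence level of the bounds is not given in the sources used here, and they were read as 95%.

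For each pair of groups, the log2 ratio of FPKM was tested with a two-sided z statistic, with the SE from the upper bound minus the FPKM divided by 1.96. Loci needed FPKM 1 in at least 1 compared group, a value above 0 in each, and status OK. Benjamini-Hochberg adjustment ran over all loci tested, and calls had an adjusted p under 0.05. Over all loci, the SD of z taken from its quartiles was 0.236 to 0.474 in these tests, below the 1 of a standard normal. The SE is thus wide, and a member not called is not shown to be unchanged. Limma 3.58.1 in R 4.3.3 used log2(FPKM + 1) of the 6 groups, with age as a factor and 2 residual degrees of freedom. EdgeR 4.0.16 on rounded estimated counts was an alternative. Python 3.11.15 did the rest. Both tests were run on simulated data. For the z test the simulated noise came from the deposited intervals themselves, so that run cannot show whether their width is right. Genes named are the members, the 2 most abundant genes of a list with no call, and the nearest profiles; others were named after their values were seen. The members and lists were chosen with earlier results of these data known. Alternatives were other values, filters, scalings, call rules, pseudocounts and ages left out.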

Additional observations from a re-analysis of the deposited data

How the results depend on the processing

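The tables hold no value per library, which limits every error above to the authors' model. No paired analysis was possible because the deposited columns carry no replicate numbers, and leaving out single libraries was not run for the same reason. Hmga2 has few fragments (29.2 to 62.9 estimated per group), and Igf2bp1 is limited by depth.

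Of 71 alternatives for the counts of members called, 69 kept the count within 1.5 times. With the SE divided by the square root of 3, control P10 against P6 called 1 member (Mex3a) and control P10 against P2 called 2 (Mex3a and Mex3b). Over all loci that setting called 207 of 19974 and 920 of 19956 in these comparisons. The fall of Mex3a in control held under all 5 other settings of the z test, with adjusted p from 4.12e-11 to 0.00925. Over all loci, control P10 against P2 gave 126 calls, 108 without a minimum, 216 from estimated counts, 272 by intervals that do not overlap and 920 with the divided SE; the limma fit gave 1 call, 12 without P2, 15 without P6 and 6 without P10.

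Of 460 log2 ratios of members under other settings, 22 changed sign, and none of these was a call. The estimated counts turned Igf2bp2 in SMA against control at P2 (-0.0753) and P10 (-0.14). They turned XLOC_039735 in SMA against control at P2 (0.0265) and in SMA P6 against P2 (-0.00168), and XLOC_041349 in SMA against control at P10 (0.10) and in the difference of changes to P6 (-0.0737). They turned XLOC_039734 in SMA against control at P6 (-0.15) and P10 (-0.0478), in control P6 (0.14) and P10 (0.28) against P2, and in SMA P10 against P6 (0.25) and P2 (0.23). They turned Lin28b in SMA against control at P6 (-0.0720), in SMA P6 against P2 (-0.19) and in the difference of changes to P6 (-0.00557), Hmga1 in SMA against control at P10 (0.00327), Mex3b in SMA P10 against P6 (0.11) and Hmga2 in the difference of changes to P6 (-0.12). Centring on the median turned Mex3b in SMA against control at P6 (-0.0653), Lin28b in SMA P6 against P2 (-0.0264), and Hmga2 (-0.0508) and Mex3a (-0.00198) in the difference of changes to P6. Of 63 limma differences 8 changed sign: Mex3a with a pseudocount of 5 (-0.00276), Hmga2 (-0.0139) and XLOC_039734 (-0.0603) with edgeR, Igf2bp2 without P6 (0.0636), and without P10 Lin28b (-0.0377), Hmga2 (-0.14), Mex3a (-0.28) and Mex3b (-0.12). The cause was not tested.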

Other observations

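Among the genes with the most let-7 seed matches, the 2 highest counts belonged to genes outside the set. Nr6a1, an orphan nuclear receptor of early development, held 8 matches in its annotated 3′ UTR. It was at FPKM 3.27, 2.87 and 2.17 in control at P2, P6 and P10 and at 3.59, 3.57 and 3.48 in SMA. Nudt12, a nucleotide hydrolase, held 7 matches and had the opposite order, at 1.55, 1.82 and 2.57 in control and 1.58, 1.84 and 2.54 in SMA. Hic2, a repressor with 4 matches, was at 1.63, 1.01 and 0.632 in control and 1.59, 1.32 and 1.03 in SMA. Ago2, the slicing Argonaute with 3 matches, was at 11.5, 14.9 and 17.5 in control. These genes were named after their values were seen, and none was called in a comparison that tested it.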
